A study of Homo sapiens with 8 samples.

Results

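The levels of 10 genes were followed across lines of SH-SY5Y, a human neuroblastoma cell line of adrenergic, neuroblast-like character. The 10 genes encode the annexins ANXA1, ANXA2, ANXA5 and ANXA6, the S100 proteins S100A6, S100A10 and S100A11, galectin-1 (LGALS1), the hyaluronan receptor CD44 and the tetraspanin CD63. They were taken by symbol from the 47591 genes of the table, and all 10 were among the 18947 genes with a mean normalized count of at least 10 that were tested. A normalized count is the count recorded for a gene divided by a size factor of the library, and it is not scaled to gene length.

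Polyadenylated RNA was sequenced from G2, SCR and WT cells to ask how the transcriptome differs when PRPF40B, which encodes a splicing factor, is silenced. G2 cells (n = 3 libraries) were edited with CRISPR/Cas9 and a guide RNA against PRPF40B. SCR cells (n = 3) carry the same editing machinery with a scrambled control guide, and WT cells (n = 2) were not edited. The methods of the study describe puromycin selection and individual colonies raised by limiting dilution for the PRPF40B knockout lines. They also state that SCR and G2 cells were grown in puromycin, which WT cells are not listed for, so puromycin and the lines cannot be told apart in G2/WT and SCR/WT. The labels call the libraries of a line biological replicates. The edit and the colony that was expanded thus cannot be told apart in G2, and p-values measure the spread between libraries of a line. In bulk RNA, a difference in the share of cells of 1 type and a difference in RNA per cell cannot be told apart.

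Annexins bind acidic phospholipids of membranes when calcium rises, and several of them act in membrane repair, in vesicle traffic and in the organization of the membrane and actin. S100 proteins are small EF-hand calcium sensors that pair with annexins: S100A10 forms a heterotetramer with ANXA2 at the plasma membrane, and S100A11 binds ANXA1. Galectin-1 binds β-galactosides of glycoproteins, CD44 binds hyaluronan and is linked to actin by ezrin, radixin and moesin, and CD63 is a tetraspanin of late endosomes, lysosomes and exosomes. In neuroblastoma, cells with a mesenchymal state are known to express more of such membrane and adhesion genes than adrenergic cells.

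Of the 10 genes, 9 had higher normalized counts in every G2 library than in any of the 5 control libraries, and S100A6 had lower counts in every G2 library. Among all tested genes, 22.8% lay above all controls in this way and 19.7% below them. S100A10 and S100A11 differed between G2 and SCR by 20.0-fold and 9.81-fold, whereas ANXA5 and ANXA6 differed by 1.87-fold and 1.84-fold. ANXA1 had no count in any control library, so it reached the mean needed for testing only through the G2 libraries. WT and SCR differed too: LGALS1 and CD63 were lower in SCR than in WT, and S100A10, S100A11 and CD44 were higher.

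The sequences directly before the transcription start are shown for the 3 genes at the extremes, ANXA1, which was listed at 0 in the controls, and S100A10 and S100A11, which had the largest fold changes of the other 9. They are RefSeq sequences of GRCh38.p14, 250 bases up to the base before the start, 5′ to 3′ on the strand of the gene. Capitals mark matches, on either strand, to 3 motifs: the AP-1 site TGANTCA, the GC box GGGCGG and the TATA box TATAAA. Matches to different motifs cannot overlap.

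ANXA1, chr9:73151615-73151864, plus strand: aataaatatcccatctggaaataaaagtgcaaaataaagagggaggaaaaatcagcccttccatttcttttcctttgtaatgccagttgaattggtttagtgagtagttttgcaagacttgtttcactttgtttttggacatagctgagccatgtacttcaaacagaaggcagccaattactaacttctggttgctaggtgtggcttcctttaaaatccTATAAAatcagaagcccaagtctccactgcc

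S100A10, chr1:151993860-151994109, minus strand: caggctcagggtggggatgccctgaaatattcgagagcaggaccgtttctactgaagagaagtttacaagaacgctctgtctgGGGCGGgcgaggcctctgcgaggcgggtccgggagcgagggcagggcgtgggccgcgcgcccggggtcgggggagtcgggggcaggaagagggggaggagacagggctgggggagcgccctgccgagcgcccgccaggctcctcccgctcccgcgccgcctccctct

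S100A11, chr1:152037005-152037254, minus strand: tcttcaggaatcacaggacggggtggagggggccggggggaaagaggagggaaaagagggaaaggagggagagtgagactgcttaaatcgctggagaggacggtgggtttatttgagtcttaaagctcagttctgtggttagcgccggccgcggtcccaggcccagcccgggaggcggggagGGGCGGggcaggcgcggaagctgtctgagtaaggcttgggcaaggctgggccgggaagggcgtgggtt

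In ANXA1 the only match was a TATA box whose first base lies 31 bases before the start, and in S100A10 and S100A11 it was a GC box, 167 and 68 bases before the start. In windows of 300 bases (250 before the start and 50 from it), 9 of the 10 genes had an entry, and LGALS1 was not in the sequence table. The GC content of the ANXA1 window was 37.7%, against 71.7% for S100A10, 65.3% for S100A11 and a median of 58.7% over all 35116 windows. A GC box stood in at least 1 window of 8 of the 9 genes and in 44.95% of all windows. A TATA box stood in windows of 2 genes (ANXA1 and ANXA2) and in 11.5% of all windows. An AP-1 site stood in windows of 2 genes (ANXA2 and CD63) and in 7.71% of all windows. ANXA6 and CD63 had 2 and 8 windows, so they had more chances of a match. A match is a description of the letters and was not tested for function.

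The depth of the libraries, taken from the counts recovered by undoing the size factors, ran from 59804395 to 81080747 counts. These are not numbers of fragments, since small counts were mostly multiples of 3. Replicates correlated with a Pearson r of 0.985 to 0.988 on the log2 scale, and no pair agreed within sampling noise. Against that noise, the WT pair had a chi-square per gene of 25.6, and the G2 and SCR pairs 2.72 to 6.26. The fit described below takes 1 spread for all lines, so the SEs in G2/WT and SCR/WT may be too small. The WT libraries stood apart in ribosomal RNA genes, which held 4.78% to 5.001% of their normalized counts against 0.414% to 0.624% in the G2 and SCR libraries. PRPF40B (chr12:49623561-49644666, hg38) checked the labels: its normalized count was 840, 841 and 918 in G2, 1686, 1672 and 1669 in SCR, and 1972 and 1668 in WT. The G2 libraries lay below all controls, with a log2 fold change of −0.95 (SE 0.08) in G2/SCR at an adjusted p of 7.4e-07 and of −1.07 (SE 0.09) in G2/WT at an adjusted p of 7.9e-07.

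limma was fitted to log2(normalized count + 1), on which the change of weakly expressed genes is understated, once over all tested genes. A gene was called when its fold change reached 1.5 with an unadjusted p no higher than 0.05, the thresholds in the methods of the study, and the adjusted p (Benjamini-Hochberg over all tested genes) is given beside it. Folds are ratios of mean normalized counts. In G2/SCR, 9 of the 10 genes were called higher and 0 lower, where 26.9% of all tested genes were called, 15.1% higher and 11.8% lower. One of the 9, ANXA1, reached the filter only through the G2 libraries, and of the other 9 genes 8 were called higher. In G2/WT, 6, again with ANXA1, were called higher and 0 lower, against 29.9% of all tested genes called, 17.7% higher and 12.2% lower. In SCR/WT, 3 were called higher and 2 lower, against 16.3% called, 10.7% higher and 5.63% lower. Without a fold threshold, all 10 genes reached an adjusted p of at most 0.05 in both G2 comparisons, and 8 did in SCR/WT. The share of all tested genes that did so was not counted, so these counts have no background to be read against. With the fold threshold of 1.5 kept, 25%, 28.2% and 13.8% of all tested genes passed at that adjusted p in G2/SCR, G2/WT and SCR/WT. These shares are therefore to be read against the calls of the 10 genes, which all had an adjusted p of at most 0.05. The median log2 fold change of the 10 genes was 1.94 in G2/SCR, 1.10 in G2/WT and −0.22 in SCR/WT, while that of all tested genes was −0.01, 0.00 and 0.01. The medians of the G2 comparisons do not change when ANXA1 is set to its lower bound. G2/SCR and G2/WT share the G2 libraries, so their calls are not independent of each other.

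Markers of cell types moved with the lines. All 12 adrenergic neuroblast markers were tested, and 8 were lower and 1 higher in G2/SCR, and 7 lower and 1 higher in G2/WT. Their summed normalized count was 271363 to 275898 in the G2 libraries, 377628 to 388199 in SCR and 337414 to 348068 in WT. STMN2 held the largest part of these sums, with means of 165517 in G2, 170244 in SCR and 116782 in WT. This gene was higher in G2 than in WT, against the direction of the sum, and the order of SCR above WT rests on it. TH was at the floor in G2. Of 11 mesenchymal or fibroblast markers 10 were tested, and 8 were called higher and 0 lower in each of the G2 comparisons. Their sum was 129330 to 131775 in G2, 28098 to 28481 in SCR and 25514 to 27178 in WT, and TWIST2 was at the floor in every library. Of the Schwann or glial markers, 3 of 8 were tested, with sums of 172 to 270.04 in G2, 394 to 608 in SCR and 430 to 465 in WT, mostly from S100B, and SOX10 was at 0 in all 8 libraries. Of the melanocyte markers, 4 of 6 were tested, with sums of 217 to 279 in G2, 243 to 273 in SCR and 267 to 319 in WT. MITF and PMEL were detected in every line, while TYR and MLANA were at 0 in all libraries. Of the immune markers, 2 of 7 were tested, with sums of 703 to 775 in G2, 98.0 to 132 in SCR and 115 to 161 in WT. These sums were mostly CD68, a lysosomal protein of macrophages, which had means of 703, 65.3 and 86.8 and was called higher in both G2 comparisons, while CD3E and AIF1 were at 0 and PTPRC at the floor in all libraries. Of the endothelial markers, 2 of 6 were tested, with sums of 42.7 to 84.7 in G2, 31.0 to 68.4 in SCR and 3.72 to 54.6 in WT, and PECAM1 was at 0 in all libraries. Of the epithelial markers, 5 of 7 were tested, with sums of 210.2 to 229 in G2, 201 to 216 in SCR and 134 to 165 in WT. Of them 3 were called higher in G2/WT and 4 in SCR/WT, and 1 was called lower in G2/SCR, while KRT5 was at 0 in all libraries. The adrenergic and mesenchymal sums and the immune sum led by CD68 thus differed between G2 and the controls alongside the 10 genes, and their part in these results was not tested.

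**Figure D1:**
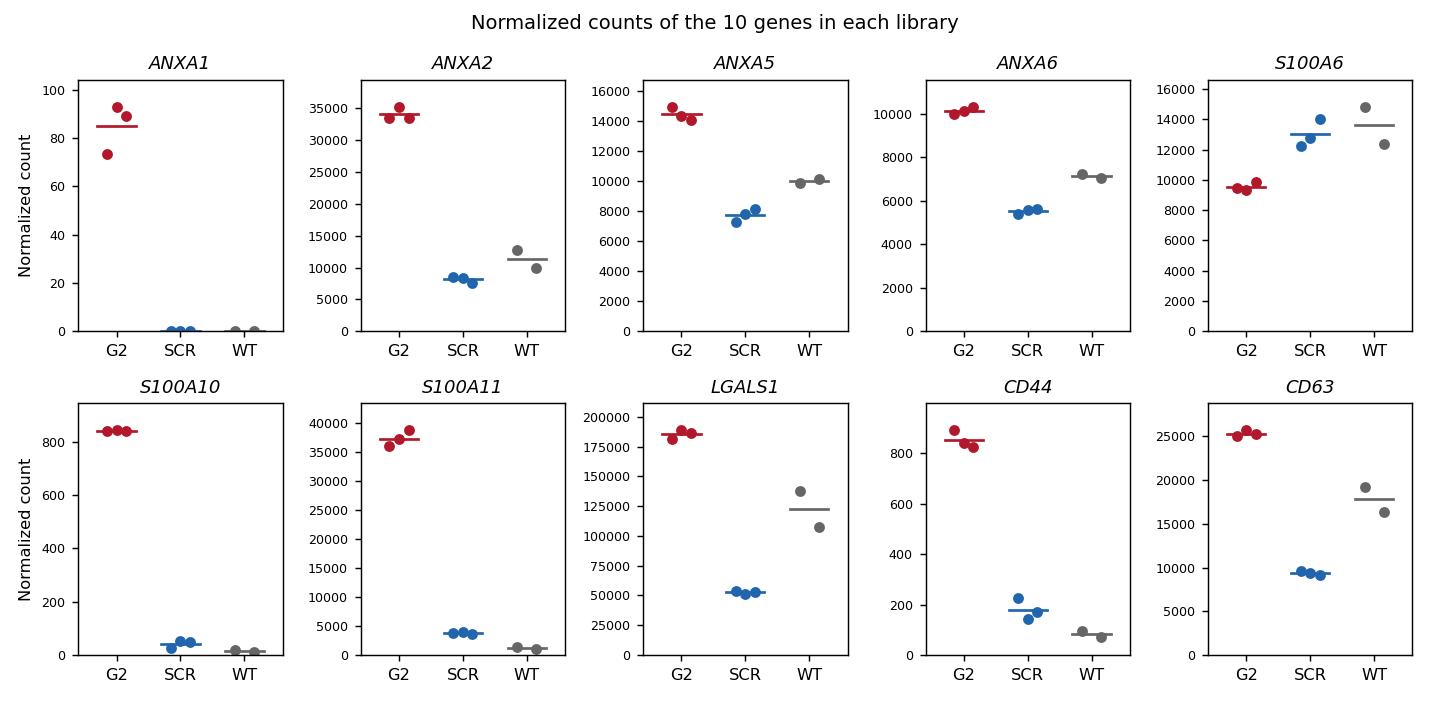
Normalized count (linear axis from 0, a separate scale for each gene) of the 10 genes in the G2, SCR and WT libraries. Points are libraries and bars are means of a line, and the 3 G2 points lie above all 5 control points in 9 panels and below them in the S100A6 panel.

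Among the annexins, ANXA1 (chr9:73151865-73170393), a glucocorticoid-induced protein that acts on inflammation through formyl peptide receptors, had normalized counts of 73.4, 93.1 and 89.2 in G2 and 0 in all 3 SCR and both WT libraries. The G2 libraries therefore stood apart from controls in which no read was counted, although the level in G2 was low. The limit of a library was taken as 9 recovered counts, about 3 fragments, because small counts were mostly multiples of 3, and such limits cover counting error only. Against this limit, the G2 mean of 85.2 ± 10.4 (SD, n = 3) lay at least 10.5-fold above SCR and at least 8.47-fold above WT. ANXA1 was called higher in both comparisons, at adjusted p-values of 3.4e-05 and 8.2e-05. Since it passed the filter on low values only through the G2 libraries, these calls are no independent support. Without a filter the adjusted p-values were 2.2e-06 and 6.1e-06.

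ANXA2 (chr15:60347172-60397992) encodes the annexin that, with S100A10, binds plasminogen and its activators at the cell surface. Its normalized count was 33423, 35253 and 33425 in G2, 8461, 8353 and 7579 in SCR, and 12759 and 9869.9 in WT. G2 was far above both controls and the SCR libraries lay below both WT libraries. The means were 34034 ± 1056 in G2, 8131 ± 481 in SCR and 11315 ± 2043 in WT. This is 4.19-fold in G2/SCR (log2 2.07, SE 0.08, adjusted p 1.5e-09) and 3.01-fold in G2/WT (log2 1.60, SE 0.09, adjusted p 4.2e-08). In SCR/WT the log2 fold change was −0.47 (SE 0.09) and not called, but without WT replicate 2 it was −0.65 and called lower.

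ANXA2 has processed pseudogenes of nearly the same sequence, and how reads that match several genes were counted is not given in the sources used here, so its level is uncertain. ANXA2P2, a pseudogene on chromosome 9, had mean normalized counts of 17639.5 in G2, 4397 in SCR and 5807 in WT, which is 47.7% to 57.7% of the ANXA2 value in every library. ANXA2P1, on chromosome 4, had 231, 65.2 and 79.3, or 0.606% to 0.899% of the ANXA2 value. Both pseudogenes thus followed the order of the lines seen for ANXA2, with log2 fold changes of 2.01 and 1.82 in G2/SCR and of 1.60 and 1.54 in G2/WT, and all 4 values were called higher.

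ANXA5 (chr4:121667946-121696992), which shields phosphatidylserine and is widely used as a probe for it, had normalized counts of 14945, 14342 and 14085 in G2, 7249 to 8110.1 in SCR and 9879.8 and 10159.8 in WT. The lines did not overlap, and their order was G2, WT and then SCR. The 1.87-fold difference in G2/SCR (14458 ± 442 against 7722 ± 437) was called higher with a log2 fold change of 0.91 (SE 0.05, adjusted p 5.8e-08). In G2/WT the difference was 1.44-fold, below the fold threshold (log2 0.53, SE 0.06, adjusted p 1.8e-05).

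ANXA6 (chr5:151100706-151157806), the annexin with a doubled core of repeats, had normalized counts of 9991, 10145 and 10333 in G2, 5374 to 5627 in SCR and 7255 and 7037 in WT. Its order of the lines, without overlap, was that of ANXA5. It was called higher in G2/SCR by 1.84-fold (log2 0.88, SE 0.05, adjusted p 2.4e-08), and in G2/WT it differed by 1.42-fold (log2 0.51, SE 0.05, adjusted p 9.0e-06), below the fold threshold. ANXA5 and ANXA6 crossed that threshold in G2/WT when libraries were scaled to the same total, with log2 fold changes of 0.71 and 0.69. Across the 8 libraries the pair had a Pearson r of 0.993 on the log2 scale, which is a description of 3 lines and not of 8 independent points.

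Of the 9 other annexin genes, 5 were tested. In G2/SCR 2 were called higher and 0 lower, and in G2/WT 2 higher and 0 lower, with medians of 0.45 and 1.15 on the log2 scale. No gene of the list met the rule for named genes, so the following were chosen after their values were seen. ANXA11, an annexin of RNA granules and vesicles, was called higher in G2/SCR (4727 ± 55.5 against 2747 ± 84.2 normalized counts), and ANXA4 in G2/WT (2068 ± 74.5 against 928 ± 22.1). ANXA3 was called higher in both, but its level in G2 was 45.2 ± 5.54 and it passed the filter only through G2. The same holds for a few weakly expressed genes of the lists described further on, such as CEMIP and FER1L6, which their counts include. ANXA7 and ANXA9 were called in neither comparison.

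The S100 genes did not move together. S100A10 (chr1:151982915-151993859), the partner of ANXA2, had normalized counts of 842, 843 and 842 in G2, 27.6, 50.7 and 48.4 in SCR, and 17.4 and 11.9 in WT. G2 was far above both controls, SCR lay above WT, and the 2 WT libraries held only 14 and 12 recovered counts. The means of 843 ± 0.519 in G2, 42.2 ± 12.7 in SCR and 14.6 ± 3.87 in WT give 20.0-fold in G2/SCR and 57.5-fold in G2/WT. The log2 fold changes were 4.34 (SE 0.24, adjusted p 2.2e-08) and 5.77 (SE 0.26, adjusted p 5.1e-09), and in SCR/WT the gene was called higher by 2.88-fold (adjusted p 0.0014). The near identity of the 3 G2 values is closer than counting error would usually allow, so the SE of the fit, which draws on all genes, is the better measure of their error.

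S100A11 (chr1:152032506-152037035), a calcium sensor that binds ANXA1 and ANXA2 and acts in membrane repair, had normalized counts of 35965, 37181 and 38727 in G2, 3757, 4014 and 3632 in SCR, and 1363 and 1070.3 in WT. The lines were well apart in the order G2, SCR, WT. The gene was called higher in G2/SCR by 9.81-fold (log2 3.29, SE 0.08, adjusted p 3.4e-11), in G2/WT by 30.6-fold (log2 4.95, SE 0.09, adjusted p 2.1e-12) and in SCR/WT by 3.12-fold (log2 1.65, SE 0.09, adjusted p 2.0e-07).

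S100A6 (chr1:153534599-153536046), or calcyclin, had normalized counts of 9436, 9319 and 9825 in G2, 12249, 12772 and 13998 in SCR, and 14829 and 12379 in WT. It was the only one of the 10 genes with all G2 libraries below all controls, while SCR and WT overlapped. The G2 mean of 9527 ± 265 was 0.732 times the SCR mean and 0.700 times the WT mean, so S100A6 was not called in either comparison. The log2 fold changes were −0.45 (SE 0.07, adjusted p 0.00026) and −0.51 (SE 0.08, adjusted p 0.00021), and without WT replicate 2 the value in G2/WT was −0.64 and called lower. In SCR/WT the log2 fold change was −0.06 (SE 0.08, adjusted p 0.60), a sign that flipped to 0.22 with libraries scaled to the same total, to 0.15 with the same total without ribosomal RNA genes and to 0.069 without WT replicate 1.

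Per length the balance of the S100 genes differed between lines. Per kb of the canonical transcript, the normalized count of S100A11 was 2.94 to 3.08 times that of S100A6 in the G2 libraries, 0.200 to 0.242 times in SCR and 0.0667 to 0.0709 times in WT. S100A11 thus stood above S100A6 in every G2 library and below it in every control library. The level of ANXA2 per kb was 17.1 to 18.1 times that of its partner S100A10 in G2, 67.7 to 133 times in SCR and 317 to 358 times in WT, where the value rests on few S100A10 counts and on the uncertain level of ANXA2.

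The 3 S100 genes lie in the S100 cluster of chromosome 1, with 5 further tested S100 genes in the stretch from S100A10 to S100A13 (chr1:151982915-153634361). Of the 8, 6 were called higher in both G2 comparisons, against 11.3% of all tested genes, and S100A6 and its close neighbour S100A4 were called in neither. One of the 6, S100A3, passed the filter only through its G2 libraries. S100A16 had the largest fitted changes of the cluster, with normalized counts of 15728, 16453 and 15926 in G2, 413, 419 and 298 in SCR, and 277 and 242 in WT. Its G2 libraries were 42.6 times the SCR mean and 61.8 times the WT mean (log2 5.43, SE 0.12, adjusted p 1.4e-11, and log2 5.95, SE 0.13, adjusted p 1.1e-11), with no overlap between the lines. S100A13, which is exported together with fibroblast growth factor 1, had 2936 ± 206 in G2, 711 ± 85.5 in SCR and 483 ± 5.08 in WT, and was called higher by 4.13-fold and 6.08-fold.

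S100A2 had 159 ± 13.8 in G2, 28.1 ± 17.2 in SCR and 83.5 ± 24.1 in WT. It was called higher in both G2 comparisons and lower in SCR/WT, but in G2/WT its adjusted p was 0.070. S100A3 had 23.5, 41.6 and 18.3 normalized counts in G2 and no control library with more than 9 recovered counts, which puts G2 at least 3.41-fold above SCR and at least 2.76-fold above WT. S100A4, known for its part in cell motility, was lower in SCR than in WT, with 1067 ± 85.5 in G2, 734 ± 92.2 in SCR and 1250 ± 51.7 in WT. It was called lower in SCR/WT with a log2 fold change of −0.77 (SE 0.11). With libraries scaled to the same total this value was −0.50 and not called. CHTOP, the 1 other tested gene of the stretch, had log2 fold changes of 0.01 (G2/SCR) and −0.41 (G2/WT) and was called in neither.

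**Figure D2:**
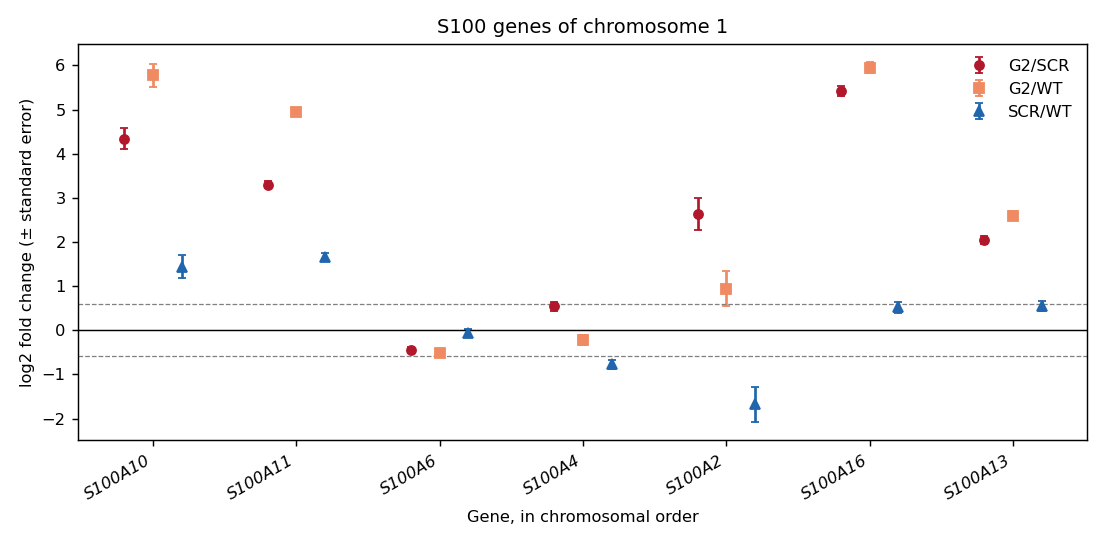
Log2 fold change ± SE (y axis) of 7 tested S100 genes of the chromosome 1 cluster, in chromosomal order, for G2/SCR (circles), G2/WT (squares) and SCR/WT (triangles), with dashed lines at a fold change of 1.5. S100A3, at the floor in both controls, is left out, and S100A6 is the 1 gene with both G2 values below 0.

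In the full list of 17 other S100 genes, 6 were tested, of which 4 were called higher and 1 lower in G2/SCR, and 4 higher and 1 lower in G2/WT. The shares called higher over all tested genes were 15.1% and 17.7%, and those called lower 11.8% and 12.2%. The gene called lower was S100B, a marker of glial and Schwann-type cells that lies on another chromosome, with 162 ± 39.1 normalized counts in G2, 484 ± 108 in SCR and 422 ± 10.04 in WT (log2 fold changes −1.58 and −1.41, adjusted p-values 3.0e-05 and 0.00018).

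LGALS1 (chr22:37675606-37679806) was the most abundant of the 10 genes in every line. Its normalized count was 181909, 188752 and 186475 in G2, 54022, 51292 and 52742 in SCR, and 137787 and 107834 in WT. The lines did not overlap, and by the means SCR was farther from WT than G2 was. The gene was called higher in G2/SCR by 3.52-fold (log2 1.82, SE 0.08, adjusted p 2.0e-09). In G2/WT it was called higher by 1.51-fold (log2 0.61, SE 0.08, adjusted p 7.6e-05), which is at the edge of the threshold, and without WT replicate 2 the log2 fold change was 0.43 and not called. In SCR/WT it was called lower, with a log2 fold change of −1.21 (SE 0.08, adjusted p 1.3e-06) and a WT mean 2.33 times that of SCR.

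Of 14 other galectin genes, 5 were tested, and 1 was called higher in each of the G2 comparisons and 0 lower. This was LGALS3, the chimera-type galectin, with 2668 ± 27.2 normalized counts in G2, 1115 ± 13.7 in SCR and 1139.7 ± 139 in WT, and log2 fold changes of 1.26 (adjusted p 3.5e-08) and 1.23 (adjusted p 1.2e-07). LGALS8 and LGALSL, expressed in every line, were called in neither comparison. The median of the 5 was −0.10 against SCR and 0.38 against WT. With 5 genes tested, 1 call is near the 15.1% and 17.7% of all tested genes called higher in G2/SCR and G2/WT.

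CD44 (chr11:35138870-35232402) was expressed at a low level. Its normalized count was 891, 841 and 824 in G2, 226, 142 and 169 in SCR, and 96.8 and 69.5 in WT. The lines did not overlap and stood in the order G2, SCR, WT, as for S100A10 and S100A11. CD44 was called higher by 4.76-fold in G2/SCR (log2 2.27, SE 0.17, adjusted p 4.1e-07), by 10.2-fold in G2/WT (log2 3.36, SE 0.19, adjusted p 3.8e-08) and by 2.15-fold in SCR/WT (log2 1.09, SE 0.19, adjusted p 0.0011). Its splice variants were not told apart by counts per gene.

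The other genes of the hyaluronan system were taken from a list of 26, of which 20 were tested. In G2/SCR 7 were called higher and 0 lower, in G2/WT 8 higher and 1 lower, and the medians were 0.46 and 0.58. For all tested genes the shares were 15.1% and 17.7% higher, and 11.8% and 12.2% lower. HAS2, which makes hyaluronan, had 391 ± 23.7 normalized counts in G2 and 20.4 ± 3.61 in SCR, which is 19.2-fold, and was at the floor in WT, at least 38.9-fold below G2. CEMIP2, which degrades it, had 301 ± 21.4 in G2, 10.3 ± 1.06 in SCR and 18.4 ± 2.11 in WT, with log2 fold changes of 4.74 and 3.96. RDX, the radixin that ties CD44 to actin, was called higher by 1.88-fold and 1.55-fold. HAPLN3, a hyaluronan link protein, was called higher by 1.55-fold and 1.53-fold, and with the same total its G2/SCR value was 0.54 on the log2 scale and not called. EZR and NF2 were called in neither comparison, and MSN was not tested.

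CD63 (chr12:55725323-55729673) had normalized counts of 25073, 25688 and 25224 in G2, 9565, 9338 and 9110.01 in SCR, and 19196 and 16401 in WT. As for LGALS1, the lines did not overlap and SCR was the lowest. CD63 was called higher in G2/SCR by 2.71-fold (log2 1.44, SE 0.06, adjusted p 1.9e-09) and lower in SCR/WT (log2 −0.93, SE 0.07, adjusted p 1.6e-06), with a WT mean 1.91 times that of SCR. In G2/WT the 1.42-fold difference (log2 0.51, SE 0.07, adjusted p 4.4e-05) was below the fold threshold, but it was called higher without WT replicate 1, at 0.63, and with libraries scaled to the same total, at 0.70.

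**Figure D3:**
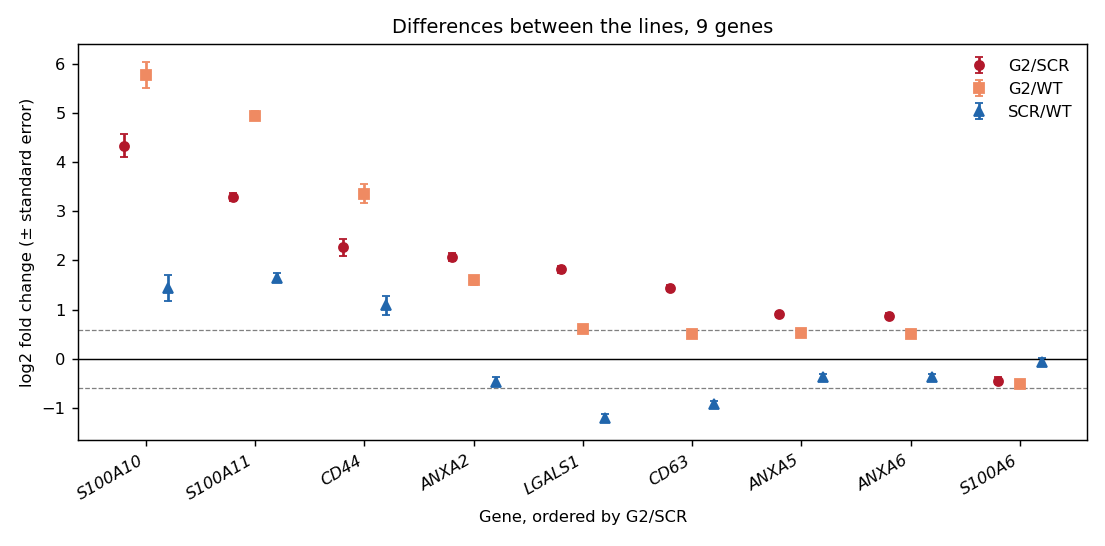
Log2 fold change ± SE (y axis) of 9 of the genes, ordered by G2/SCR, for G2/SCR (circles), G2/WT (squares) and SCR/WT (triangles), with dashed lines at a fold change of 1.5. ANXA1, at 0 in the controls, is left out, and the SCR/WT triangles lie above 0 for S100A10, S100A11 and CD44 and below 0 for the other 6, although that of S100A6 (−0.06) changed sign under another scaling.

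Of 32 other tetraspanin genes, 31 were in the table and 25 were tested. In G2/SCR 10 were called higher and 5 lower, in G2/WT 10 higher and 3 lower, with medians of 0.48 and 0.45. All tested genes had shares of 15.1% and 17.7% called higher, and of 11.8% and 12.2% called lower. CD9, a tetraspanin of the plasma membrane and exosomes, had 6607 ± 178 normalized counts in G2, 1239 ± 84.1 in SCR and 1249 ± 103 in WT, so that the controls were alike and G2 was 5.33-fold and 5.29-fold higher. CD151, a partner of laminin-binding integrins, was called higher by 3.56-fold and 2.57-fold, TSPAN4, a protein of migrasomes, by 3.57-fold and 3.19-fold, and TSPAN8 by 2.05-fold and 3.36-fold. In the other direction, TSPAN2, TSPAN7 and TSPAN18 were called lower in both. Their G2 means were 0.270, 0.465 and 0.654 times those of SCR and 0.558, 0.622 and 0.334 times those of WT. With libraries scaled to the same total, TSPAN7 was not called in G2/WT. CD81, with 10929.9 normalized counts in G2 and 9271 in SCR, was called in neither.

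Endosomal and exosomal partners of CD63 made a list of 18, all tested, of which 8 were called higher and 0 lower in G2/SCR and 9 higher and 0 lower in G2/WT, with a median of 0.52 in each. Beside this, 15.1% and 17.7% of all tested genes were called higher, and 11.8% and 12.2% lower. SDC4, a syndecan that enters exosomes with syntenin, had 6219 ± 445 in G2, 990.2 ± 119 in SCR and 952 ± 21.9 in WT (6.28-fold in G2/SCR, adjusted p 3.1e-10, and 6.53-fold in G2/WT, adjusted p 7.7e-10). SDCBP, which encodes syntenin, was called higher by 2.22-fold and 1.87-fold, and LAMP2, a lysosomal membrane protein, by 2.62-fold and 2.50-fold. TIMP1, an inhibitor of metalloproteinases that binds CD63, had 18227 ± 417 in G2, 104 ± 20.5 in SCR and 1222 ± 213 in WT. It differed by 175-fold from SCR and 14.9-fold from WT and was called lower in SCR/WT (log2 −3.55), so its lines stood in the order of LGALS1 and CD63. The sorting machinery (TSG101, HGS, STAM, VPS4A and VPS4B) was called in neither comparison.

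Known partners of annexins and S100 proteins made a list of 20 genes, of which 14 were tested. In G2/SCR 9 were called higher and 1 lower, in G2/WT 8 higher and 2 lower, with medians of 0.93 and 0.96. Higher calls made up 15.1% and 17.7% of all tested genes, and lower calls 11.8% and 12.2%. AHNAK, a very large scaffold protein that binds the ANXA2 and S100A10 complex, had 13194 ± 626 normalized counts in G2, 1341 ± 201 in SCR and 877 ± 229 in WT (log2 3.31, adjusted p 1.1e-09, and 3.93, adjusted p 7.4e-10). PLAT, the tissue plasminogen activator that this complex binds, was called higher by 8.95-fold and 11.7-fold, and CTSB and MYH9 by 2.09-fold and 2.43-fold in G2/SCR and by 1.96-fold and 2.41-fold in G2/WT. KCNK3 was called lower in both G2 comparisons, with a G2 mean 0.477 times that of SCR and 0.415 times that of WT. CACYBP was called lower in G2/WT only (0.621 times), and not with libraries scaled to the same total. The formyl peptide receptors of ANXA1, FPR1, FPR2 and FPR3, were too low to be tested.

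Membrane repair genes made a list of 20, with 16 tested, of which 5 were called higher and 0 lower in each of the G2 comparisons, with medians of 0.33 and 0.40. The background over all tested genes was 15.1% and 17.7% called higher, and 11.8% and 12.2% called lower. CAVIN1, a coat protein of caveolae, had 571 ± 113 in G2, 107 ± 4.32 in SCR and 17.5 ± 8.95 in WT, and SMPD1, the acid sphingomyelinase, was called higher by 2.04-fold and 2.24-fold. The calpain CAPN2 was called higher in G2/SCR (10264 against 6199.8 normalized counts) and not in G2/WT, while CAPN1, CAPNS1 and the ESCRT genes of the list were called in neither comparison.

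By the order of the line means, 8 of the 10 genes fell into 2 patterns, while ANXA1 was at 0 in both controls and S100A6 was lowest in G2. ANXA2, ANXA5, ANXA6, LGALS1 and CD63 stood in the order G2, WT, SCR, with all SCR libraries below both WT libraries in all 5, an event found in 27.8% of all tested genes. S100A10, S100A11 and CD44 stood in the order G2, SCR, WT, with all SCR libraries above both WT libraries, found in 27.5% of all tested genes. Of all tested genes, 11.3% were called higher in both G2 comparisons and 6.43% lower in both, which holds for 6 and 0 of the 10 genes. Of these 6, ANXA1 and ANXA2 were not called in SCR/WT, a combination found in 8.13% of all tested genes. LGALS1 and CD63 were called lower in SCR/WT and higher in G2/SCR, as were 1.99% of all tested genes, and S100A10, S100A11 and CD44 were called higher in both, as were 2.44%. All G2 libraries lay above all controls in 22.8%, below them in 19.7% and thus outside them in 42.5% of all tested genes, and outside them in all 10 genes here.

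Summed over the 10 genes, the normalized counts were 318286 ± 5136 in G2 (0.488% ± 0.00630 of all normalized counts), 100425 ± 949 in SCR (0.164% ± 0.00129) and 184008 ± 27118 in WT (0.247% ± 0.0226). LGALS1 held 58.3%, 52.5% and 66.7% of these sums, so they mostly describe that gene. Per kb of the canonical transcript, LGALS1 was the highest in every line, at 351727 in G2, 99783 in SCR and 232595 in WT. In G2 it was followed by S100A11 (66237) and CD63 (24759), and S100A6 (21951) and ANXA2 (21901) differed by less than the spread between libraries. In SCR and in WT the second place was held by S100A6, at 29968 and 31345. CD44 (157, 32.9 and 15.3) and ANXA1 (60.8, 0 and 0) were at the lower end in G2, SCR and WT, and in the controls S100A10 (62.9 and 21.8) lay between CD44 and ANXA6, although in WT the difference between S100A10 and CD44 was within the spread of the 2 libraries.

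**Figure D4:**
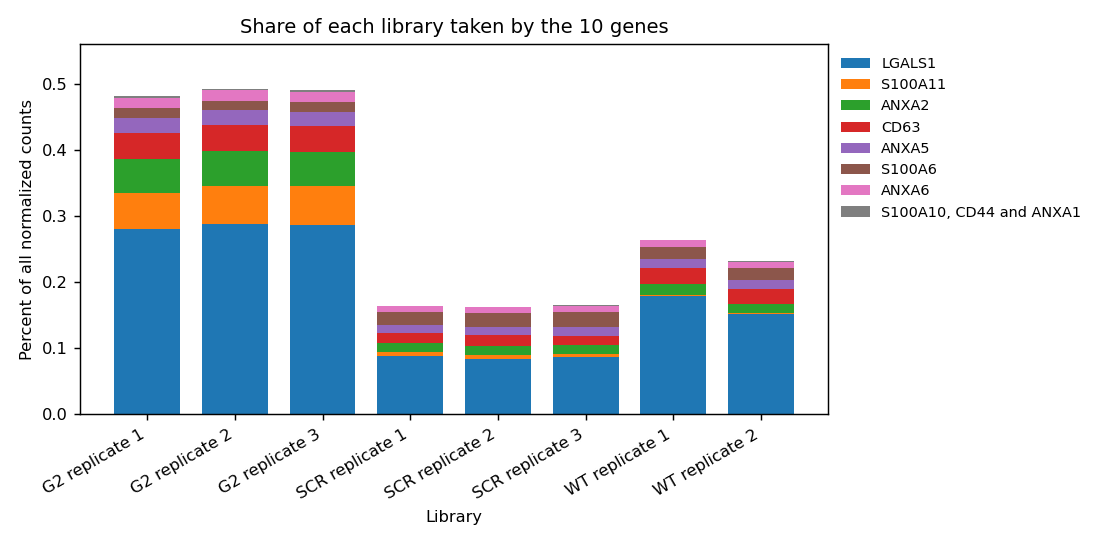
Share of all normalized counts in percent (stacked bars from 0) held by the 10 genes in each library. The G2 bars reach 0.481% to 0.492%, the SCR bars 0.162% to 0.165% and the WT bars 0.231% and 0.263%, and LGALS1 forms more than any other gene in every bar.

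For each of the 10 genes, the gene most like it was taken as the one with the highest Pearson r over the 8 libraries on the log2 scale, among the 12579 genes that have a symbol and a mean no lower than 100. With 3 lines such values are high for many genes, and they are given as a description. They were SPRY4 for ANXA1 (r 0.999), CD151 for ANXA2 (r 0.999), ZNF804A for ANXA5 (r 0.998), CDR2 for ANXA6 (r 0.999) and ATG101 for S100A6 (r 0.989). They were NUB1 for S100A10 (r 0.999), SOX9 for S100A11 (r 0.999), SNX7 for LGALS1 and CD63 (r 0.999 for both) and HLX for CD44 (r 0.998). The likeness is one of shape and not of size, since SPRY4 had mean normalized counts of 6500.4, 3563 and 3568 in G2, SCR and WT, and NUB1 6978, 5604 and 5270.2. SOX9, a transcription factor of neural crest and cartilage, had 3302, 301 and 98.7, close to the fold differences of S100A11. Among the 10 genes themselves, the highest r was that of LGALS1 and CD63 (0.999), followed by ANXA5 and ANXA6 (0.993) and S100A10 and S100A11 (0.991), and every r with S100A6 was negative, from −0.933 to −0.666.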

How the data were processed

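RNA-seq of polyadenylated RNA was made with a stranded kit as paired reads of 8 libraries (3 G2, 3 SCR, 2 WT). Reads were aligned by the authors to hg38 (STAR), assigned to FAST DB genes with featureCounts (Subread 1.5.0) and normalized with DESeq2. The strand setting and the treatment of reads that match several genes are not given in the sources used here. The deposited signal is the count divided by a size factor. Values were whole multiples of 1 step per library (100% of values within 0.01), and dividing by it gave counts. The step of WT replicate 2 is too near 1 to check this, so count models were run for G2/SCR only. Since 71.3% to 75.6% of small counts were multiples of 3, the floor was set at 9 counts per library.

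limma 3.58.1 (R 4.3.3; 1 mean per line, eBayes with trend) was run on log2(value + 1) for genes whose mean reached 10, and was tested on simulated data. edgeR 4.0.16 and DESeq2 1.42.0 were alternatives, beside other pseudocounts, filters, scalings, thresholds, fits and left-out libraries. Both count models took the recovered counts without division by 3. Named genes were the 10 genes, PRPF40B, the tested S100 genes of the chromosome 1 cluster, the most similar gene to each member, and up to 4 genes per list called the same way in both G2 comparisons with the smallest p and a mean of at least 100. The 10 genes and all lists were chosen with earlier results of these data known. Other genes were named after their values were seen.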

Additional observations from a re-analysis of the deposited data

How the results depend on the processing

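The number of the 10 genes called in G2/SCR was 9 under every alternative except 8 with a mean of 100 or more required, which leaves ANXA1 untested, and 7 with a fold change of at least 2. In G2/WT it was 6, against 9 with libraries scaled to the same total, 9 with the same total without ribosomal RNA genes (added after seeing the data) and 5 with a mean of 100 or more or a fold threshold of 2. When each library was left out it was 6 to 7. Without WT replicate 2 the 6 were 5 higher and 1 lower, as LGALS1 lost its call and S100A6 was called lower. In SCR/WT it was 5, 4 at a fold threshold of 2, and 5 to 6 with a library left out. PRPF40B in G2/SCR kept its log2 fold change of −0.95 but missed a fold threshold of 2, and with a library left out it ran from −0.99 to −0.93, and from −1.19 to −0.95 in G2/WT.

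Of the log2 fold changes of single genes under the alternatives other than the fold threshold of 2, at which ANXA5 and ANXA6 lost their calls in G2/SCR, all 209 of G2/SCR kept their direction and call. Of 189 in G2/WT, 180 did so, 1 lost its call and 8 gained one. Of 171 in SCR/WT, 167 did so, 1 gained a call and 3 reversed, all S100A6 (0.22 with the same total, 0.15 with the same total without ribosomal RNA genes and 0.069 without WT replicate 1, where leaving out each library gave −0.19 to 0.069). Scaling to the same total moved the median of all genes to −0.10, 0.19 and 0.29 in G2/SCR, G2/WT and SCR/WT. The S100A6 value of 0.22 in SCR/WT lay below the median of that scaling. Genes called higher and lower went from 2858 and 2230 to 2485 and 2757 in G2/SCR, from 3353 and 2304 to 4519 and 1446 in G2/WT, and from 2031 and 1066 to 3972 and 409 in SCR/WT. Over all genes, 5088, 5657 and 3097 were called in the 3 comparisons, against 2951, 3176 and 1491 at a fold threshold of 2 and 3088, 3633 and 1723 with a mean of 100 or more, where fewer genes were tested. The cause of the other changes was not tested.

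Deviations from the line mean had correlations of −0.13, 0.05 and 0.15 between G2 and SCR libraries with the same replicate number. Those with different numbers had −0.20 to 0.17. No pairing by number was seen, but so few values cannot exclude it, and pairing in another order was not tested. With the replicate number as a block, 9, 6 and 5 of the 10 genes were called, as without it, PRPF40B had log2 fold changes of −0.95 and −1.09, and 5059, 5644 and 3057 of all genes were called. Depth limits ANXA1 in the controls and S100A10 in WT, where few counts were recorded.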
